A study of Mus musculus with 2 samples.

Results

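A set of 10 genes of glucose uptake and insulin signalling was described in mouse gastrocnemius, the large calf muscle: the glucose transporters Slc2a4 and Slc2a1, the insulin receptor Insr, the receptor substrates Irs1 and Irs2, the phosphoinositide 3-kinase (PI3K) regulatory subunit Pik3r1, the kinases Akt1 and Akt2, and the Rab GTPase-activating proteins Tbc1d1 and Tbc1d4. These 10 genes were chosen by name, for their place in the pathway and by no threshold on their values, although earlier results of these data were known, out of 55536 genes in the deposited tables, and all 10 were found by symbol. Total RNA with ribosomal RNA reduced was sequenced from whole gastrocnemius of 2 female B6CASTF1/J mice, hybrids of C57BL/6J and CAST/EiJ, aged 8 to 10 months, with 1 library for each animal, here replicate 1 (animal 1 of the labels) and replicate 2 (animal 3). No treatment is named in the labels, so the data form 1 group, and the questions they bear on are the level of each gene, its level against its paralogs, and how far the animals differed. The labels list one shared donor identifier for both libraries, with a tissue sample for each. They were counted as 2 animals, with spread that may be partly technical.

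In muscle, insulin binds its receptor tyrosine kinase, which phosphorylates IRS docking proteins. These recruit PI3K through its regulatory subunit, and the lipid that PI3K makes brings AKT to the membrane. AKT phosphorylates TBC1D4 and TBC1D1, which otherwise hold Rab GTPases in their inactive form, and vesicles that carry the transporter GLUT4, the product of Slc2a4, then move to the cell surface. RNA levels do not show the phosphorylation or the position of these proteins.

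The libraries held 42714567 and 43421652 expected counts (estimated reads per gene) in replicates 1 and 2. Levels are given as TPM, in which counts are divided by transcript length and scaled to a fixed total for each library. The 7SL RNAs of the signal recognition particle, Rn7s1 and Rn7s2, made up 27.0% and 33.6% of all TPM, so other TPM values were scaled lower in replicate 2. Differences between animals were therefore taken as log2 ratios of replicate 2 over replicate 1 after TMM scaling, over the 11125 genes that averaged 50 or more expected counts. A scaling to the ERCC spike-ins (RNAs added in known amounts) shifted the median of all these genes from 0.00 to -0.12. Markers of fast fibres, among them Tnnt3, Mylpf and Atp2a1, summed to 79718 and 71077 TPM, and all 8 were detected, in accord with the tissue on the labels. In bulk tissue, fewer cells of a type and less RNA per cell cannot be told apart.

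All 10 genes were detected, taken as 1 TPM or more in both animals, against 19% of all 55536 genes and 9686 of 22028 protein-coding genes. Slc2a4 was the highest at 186.8 ± 9.58 TPM (SD, n = 2, as for every ± below) and Slc2a1 the lowest at 2.31 ± 0.424 TPM. Between them, Akt2 stood at 88.7 ± 3.17 TPM. Insr, Irs1 and Tbc1d1 followed at 28.6 ± 1.37, 28.1 ± 14.6 and 26.9 ± 1.48 TPM. The ranges of these 3 genes over the animals overlapped, so their order is not resolved. Akt1 and Tbc1d4 came next at 19.1 ± 2.62 and 16.8 ± 0.530 TPM, a gap smaller than the spread of Akt1, and both fell within or just under the range of Irs1. A second quantification, a separate transcript table made directly from the reads, instead put Akt1 above Insr in both animals. Akt1 was there at 25.5 and 22.4 TPM and Insr at 21.7 and 19.4 TPM, so the place of Akt1 depends on the quantification. Pik3r1 and Irs2 were at 7.33 ± 0.948 and 5.75 ± 0.863 TPM. By mean TPM, Slc2a4 ranked 299 among protein-coding genes, Akt2 596, and Slc2a1 8250.

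**Figure D1:**
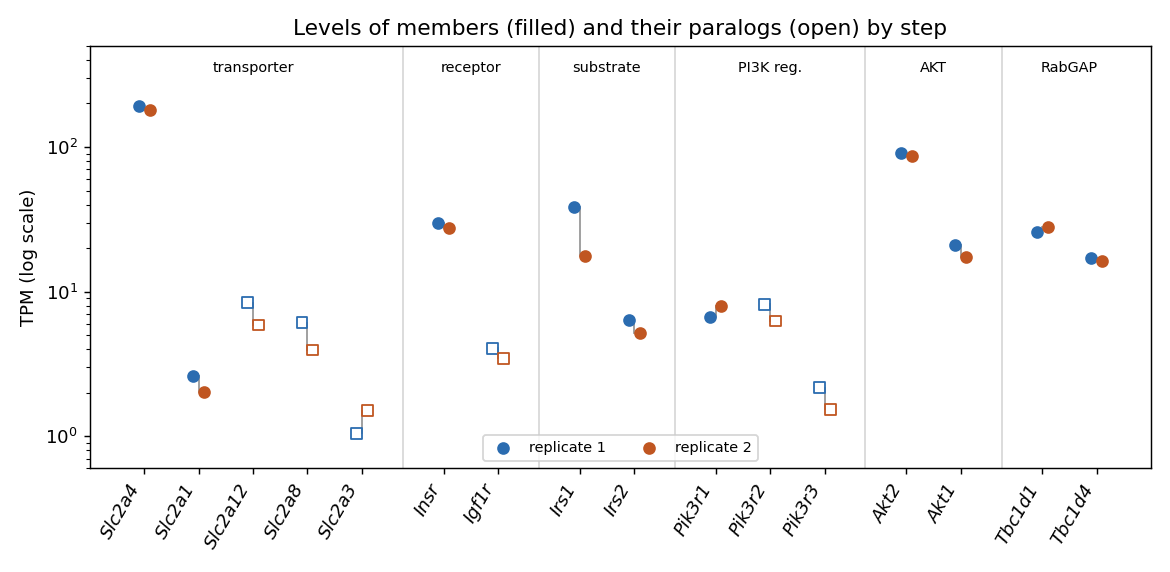
TPM on a log axis for the 10 genes (filled circles) and paralogs of them (open squares), grouped by step of the pathway, with replicate 1 in blue and replicate 2 in orange and a grey line joining the animals. Slc2a4, Akt2, Insr, Irs1 and Tbc1d1 lie above the other plotted genes of their own step in both animals, whereas Pik3r1 lies below Pik3r2 in replicate 1 and above it in replicate 2.

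Of the glucose transporters, Slc2a4 (GLUT4, the transporter that insulin and contraction bring to the muscle surface; chr11:69942539-69948188, minus strand, mm10 as for all coordinates here) was at 194 TPM in replicate 1 and 180.04 TPM in replicate 2, from 13062 and 13817 expected counts. Slc2a1 (GLUT1, a transporter of basal uptake in many cell types; chr4:119108711-119137983, plus strand) was at 2.61 and 2.01 TPM, from 195 and 186 counts. The TPM ratio of Slc2a4 over Slc2a1 was 74.2 (95% counting interval 64.4 to 85.9) in replicate 1 and 89.6 (77.5 to 104.1) in replicate 2, with a mean of 81.9 ± 10.9. These intervals are exact (Clopper-Pearson) intervals on the counts of a single library and cover counting error only. Slc2a4 exceeded Slc2a1 in both animals by far more than the spread between them.

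Slc2a4 held 91.9 ± 1.22% of the TPM of the 12 listed transporters of its family. Only 5 of the 12 were detected. Slc2a12 (GLUT12) was the next highest, at 8.40 and 5.88 TPM, which was above Slc2a1 in both animals. Slc2a8 (GLUT8, a mainly intracellular transporter) was at 6.10 and 3.95 TPM, and Slc2a3 (GLUT3, the main neuronal transporter) at 1.05 and 1.5 TPM. In the second quantification Slc2a3 was at 0.960 and 0.661 TPM, so its detection depends on the quantification. Slc2a2 (GLUT2, of liver and pancreatic islets) and Slc2a7 had no count in either library, where the limit of a count of 0, taken as 3 counts, is 0.0702 and 0.0691 CPM (counts scaled to the library total). Hk2, the hexokinase of insulin-responsive tissues that traps the glucose taken up, held 97.8 ± 0.780% of hexokinase TPM, at 110 and 124 TPM, and Hk1 was the only other hexokinase detected, at 2.53 and 1.36 TPM.

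Slc2a1 is also expressed in cells of vessels and nerves, so markers of those cells are given beside its low level, with erythroid markers for the blood in the tissue. All 8 endothelial markers were detected, with summed levels of 67.7 and 54.6 TPM and with Egfl7, Cdh5 and Pecam1 the highest. Of 8 Schwann and nerve markers, 3 were detected, with sums of 58.3 and 13.1 TPM. Perineurial markers summed to 12.8 and 8.62 TPM, with Tjp1 the only 1 of 6 detected and Slc22a2 and Krt23 at 0 counts. Erythroid markers summed to 206 and 155 TPM, with Slc4a1 at 0. The part of any of these cells in the Slc2a1 level was not tested.

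At the receptor, Insr (the insulin receptor; chr8:3122061-3279617, minus strand) was at 29.6 TPM in replicate 1 and 27.6 TPM in replicate 2, from 5187 and 5471 counts. Igf1r, the receptor for insulin-like growth factors, was at 4.05 and 3.45 TPM. The ratio of Insr over Igf1r was 7.30 (6.85 to 7.79) and 8.01 (7.53 to 8.53), with a mean of 7.66 ± 0.501, and Insr held 88.4 ± 0.667% of the TPM of the 3 receptors of the family. Insrr, the insulin receptor-related receptor, had 1 count in each library. In the second quantification the Insr ratio was 5.87 and 6.55, so it was lower by more than the spread between the animals but on the same side of 1.

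The insulin receptor is known in a form with and a form without a small alternative exon near the end of the insulin-binding alpha subunit. In GENCODE M21 this exon of 36 bases, 12 codons, lies at chr8:3181702-3181737 on the minus strand and is exon 4 of the fragment transcript Insr-203. It is shown because it is all that separates Insr-203 from the full-length Insr-201 (1372 residues) in this stretch, with the exon in capitals and 20 bases of the neighbouring exon on each side.
Insr alternative exon: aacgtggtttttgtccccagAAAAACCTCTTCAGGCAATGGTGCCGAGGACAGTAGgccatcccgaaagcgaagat

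Insr-201, without the exon, had 62.1% and 61.2% of Insr TPM in replicates 1 and 2. Insr-203, with the exon, had 11.7% and 13.7%. Of the TPM of this pair, the form with the exon thus had 15.8% and 18.2%, a mean of 17.0 ± 1.72%, and the second quantification gave 16.5% and 18.0%. The estimate rests on 55.4 and 69.4 expected counts for Insr-203. Its deposited credibility bounds were 2.13 to 4.77 TPM in replicate 1 and 2.42 to 5.26 TPM in replicate 2. Insr-203 is only 672 bases long, and no full-length annotated transcript holds the exon, so reads from the rest of any longer RNA with the exon could be counted only to other Insr transcripts. The percentages are therefore those of the annotated pair and not of receptor RNA molecules. A retained-intron transcript of the 5′ part of the gene, Insr-202, had 25.4% and 24.4%, but 13.8% and 12.3% in the second quantification.

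At the docking step, Irs1 (insulin receptor substrate 1; chr1:82233101-82291416, minus strand) was at 38.3 TPM in replicate 1 and 17.8 TPM in replicate 2, from 9732 and 5165 counts. Irs2 (insulin receptor substrate 2; chr8:10984681-11008458, minus strand) was at 6.36 and 5.14 TPM, from 1110 and 1028 counts. Irs1 was thus high in replicate 1, and its ratio over Irs2 was 6.03 (5.66 to 6.42) there and 3.46 (3.23 to 3.70) in replicate 2. Irs1 was the higher of the pair in both animals, with a mean ratio of 4.74 ± 1.82, but the size of the ratio differed between the animals by more than counting error. Irs1 held 85.8% and 77.6% of the TPM of the IRS genes, and Irs4 had no counts. Each of Irs1 and Irs2 has a single annotated transcript, which codes for 1231 and 1321 residues, so their counts are not divided among transcripts. Their levels still differed between quantifications, with Irs1 at 31.4 and 14.2 TPM and Irs2 at 5.13 and 4.06 TPM in the second.

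Pik3r1 (the p85 alpha family of PI3K regulatory subunits; chr13:101680563-101768217, minus strand) was at 6.66 TPM in replicate 1 and 8.00 TPM in replicate 2, from 1239 and 1658 counts. Its paralog Pik3r2 (p85 beta) was at 8.15 and 6.26 TPM, from 579 and 557 counts. The ratio of Pik3r1 over Pik3r2 was 0.817 (0.740 to 0.903) and 1.28 (1.16 to 1.41), with a mean of 1.05 ± 0.326. The order of the pair was opposite in the animals, and Pik3r1 and Pik3r2 were not told apart in level. In the second quantification Pik3r1 was the higher in both, with ratios of 1.07 and 1.58. Pik3r3 (p55 gamma) was at 2.16 and 1.54 TPM.

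The leading Pik3r1 transcript was Pik3r1-202, with 92.2% and 86.7% of the gene, which codes for 724 residues, the full-length p85 alpha. Pik3r1-201, which codes for a shorter form of 454 residues, had 3.85% and 5.94%. In the second quantification Pik3r1-202 had 62.2% and 60.6%, so its share depends on the quantification while its place as the leading transcript does not. Of the catalytic subunits, Pik3ca (p110 alpha, the main partner in insulin signalling) held 75.2 ± 0.469% of TPM, at 21.5 and 18.7 TPM.

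Akt2 (the AKT isoform most tied to glucose uptake; chr7:27591552-27640826, plus strand) was at 90.9 TPM in replicate 1 and 86.5 TPM in replicate 2, from 5950 and 6251 counts. Akt1 (the isoform most tied to growth; chr12:112653821-112674884, minus strand) was at 20.98 and 17.3 TPM, from 1408 and 1434 counts. The ratio of Akt2 over Akt1 was 4.33 (4.09 to 4.60) and 5.0 (4.72 to 5.30), a mean of 4.67 ± 0.473. Akt2 was thus the higher in both animals, by more than the spread between them. In the second quantification the ratio of Akt2 over Akt1 was 3.49 and 3.62.

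The leading Akt1 transcript, Akt1-201 (480 residues), had 85.3% and 99.4% of the gene, and Akt1-205 (437 residues) had 14.7% and 0%. The second quantification instead gave 53.6% and 58.4% to Akt1-201, with 28.8% and 37.1% in the short noncoding Akt1-207, which had 0 counts in the first. For Akt2, Akt2-201 (481 residues) had 53.6% and 58.3%, Akt2-214, with the same number of residues, 14.8% and 8.44%, and the partial transcript Akt2-206 had 20.9% and 25.6%. Akt2-206 was at 0 in the second quantification, where Akt2-201 still led, with 46.2% and 47.7%. The partial transcript Akt2-210 had 20.8% and 20.7% there, against 0.96% and 0% in the first. Akt2-207, also partial, had 15.3% and 18.1%, against 0% and 0.42%. The shares of Akt1-207, Akt2-206, Akt2-207 and Akt2-210 thus differed between quantifications by more than between animals.

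Tbc1d1 (chr5:64156305-64351486, plus strand) was at 25.8 TPM in replicate 1 and 27.9 TPM in replicate 2, from 4104 and 4721 counts. Tbc1d4 (also called AS160; chr14:101442360-101609191, minus strand) was at 17.1 and 16.4 TPM, from 1918 and 2210 counts. In mice, TBC1D1 is known as the form that prevails in fast glycolytic muscle and TBC1D4 as the form that prevails in oxidative muscle. The ratio of Tbc1d1 over Tbc1d4 was 1.51 (1.43 to 1.59) and 1.70 (1.62 to 1.79), a mean of 1.60 ± 0.139. Tbc1d1 was the higher of the pair in both animals, by the smallest margin among the 5 pairs whose order was the same in both.

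**Figure D2:**
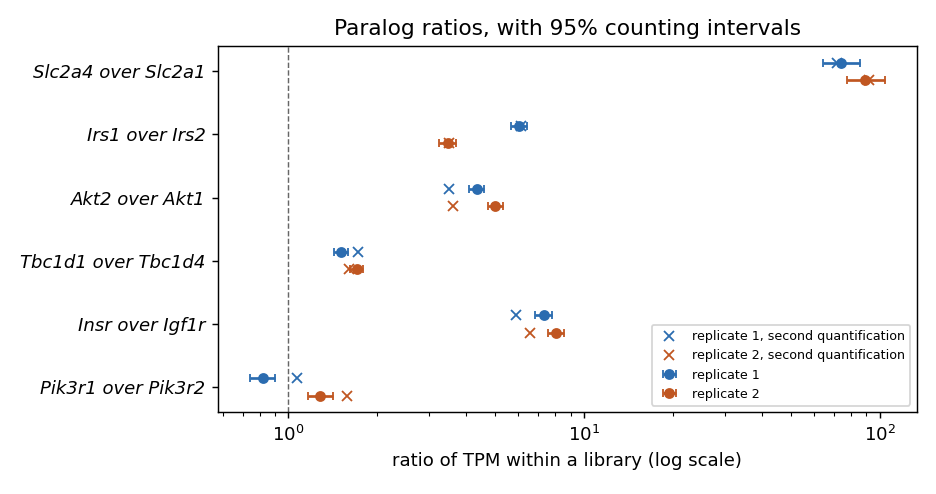
Ratio of TPM within each library for 6 pairs of paralogs on a log axis, with circles for the first quantification, bars for its 95% counting intervals, crosses for the second quantification, blue for replicate 1 and orange for replicate 2. The ratio lies above 1 (dashed line) in both animals for 5 pairs, and Pik3r1 over Pik3r2 lies at 0.817 in replicate 1 and 1.28 in replicate 2.

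Both RabGAP genes have a long form with a pair of additional exons, known from muscle, and these exons are shown because they set the length of the protein that could be made. In Tbc1d1 they are exons 12 and 13 of Tbc1d1-201, at chr5:64283967-64284125 and chr5:64284690-64284809 on the plus strand, 279 bases or 93 codons together. In Tbc1d4 they are exons 11 and 12 of Tbc1d4-210, at chr14:101475077-101475241 and chr14:101471428-101471451 on the minus strand, 189 bases or 63 codons. Capitals mark the joined exons and lower case the bases of the neighbouring exons, from the GENCODE M21 transcripts, which carry the reference strain's bases.
Tbc1d1 long-form exons: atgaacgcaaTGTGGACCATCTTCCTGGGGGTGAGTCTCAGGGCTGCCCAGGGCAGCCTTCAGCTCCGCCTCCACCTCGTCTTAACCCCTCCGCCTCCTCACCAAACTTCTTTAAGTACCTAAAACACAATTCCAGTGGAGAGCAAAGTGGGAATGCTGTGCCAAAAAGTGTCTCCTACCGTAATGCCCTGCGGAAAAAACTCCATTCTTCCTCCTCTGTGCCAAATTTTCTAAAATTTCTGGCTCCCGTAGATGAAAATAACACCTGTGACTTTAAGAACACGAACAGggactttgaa
Tbc1d4 long-form exons: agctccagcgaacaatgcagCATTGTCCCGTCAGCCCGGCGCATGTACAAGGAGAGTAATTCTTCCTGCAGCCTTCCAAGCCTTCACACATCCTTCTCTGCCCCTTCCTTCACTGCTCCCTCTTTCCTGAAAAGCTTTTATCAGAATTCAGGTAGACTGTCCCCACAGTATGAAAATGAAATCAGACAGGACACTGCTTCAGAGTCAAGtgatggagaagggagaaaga

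Of the TPM of Tbc1d1 transcripts that either hold or skip these exons, the form with them had 85.8% in replicate 1 and 97.2% in replicate 2, a mean of 91.5 ± 8.06%. The second quantification gave 68.8% and 76.0%. The long Tbc1d1-201 (1255 residues) was the leading transcript in both animals, with 74.0% and 70.1% of the gene. Tbc1d1-203 (1033 residues), which skips the exons, had 10.0% and 0%, and the noncoding Tbc1d1-206, which does not reach them, 11.4% and 20.6%. Tbc1d1-204 (1162 residues), which also skips the exons, had 2.24% and 2.03%, but 16.9% and 13.6% in the second quantification. There it was the highest of the forms without the exons in both animals, so which of these forms led in replicate 1 depends on the quantification. For Tbc1d4 the form with the exons had 74.4% and 67.0%, a mean of 70.7 ± 5.20%, and 65.5% and 62.1% in the second quantification. By this measure the form with the additional exons was above 60% for both genes in both animals and both quantifications. For Tbc1d4, however, most of that share came from the partial transcript Tbc1d4-201. Between the complete coding transcripts, Tbc1d4-210 with the exons had 13.7% of the gene and Tbc1d4-209 without them 11.98% in replicate 1, against 13.2% and 20.9% in replicate 2. In the second quantification Tbc1d4-209 was the higher in both animals, at 20.2% and 17.8% against 14.4% and 7.17%, so which complete form of Tbc1d4 prevailed was not resolved.

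Tbc1d4 was the only one of the 10 genes whose leading transcript was not the same in both animals: Tbc1d4-201 led in replicate 1 (36.6% against 29.4% in replicate 2) and the retained-intron transcript Tbc1d4-208 in replicate 2 (33.2% against 32.0% in replicate 1). Tbc1d4-201 is a partial transcript of the 5′ part of the gene and Tbc1d4-208 one of the 3′ part. The complete Tbc1d4-209 codes for 1243 residues and Tbc1d4-210 for 1306. The shares of Tbc1d4-201 and Tbc1d4-208 thus describe different stretches of the gene and not alternative proteins.

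**Figure D3:**
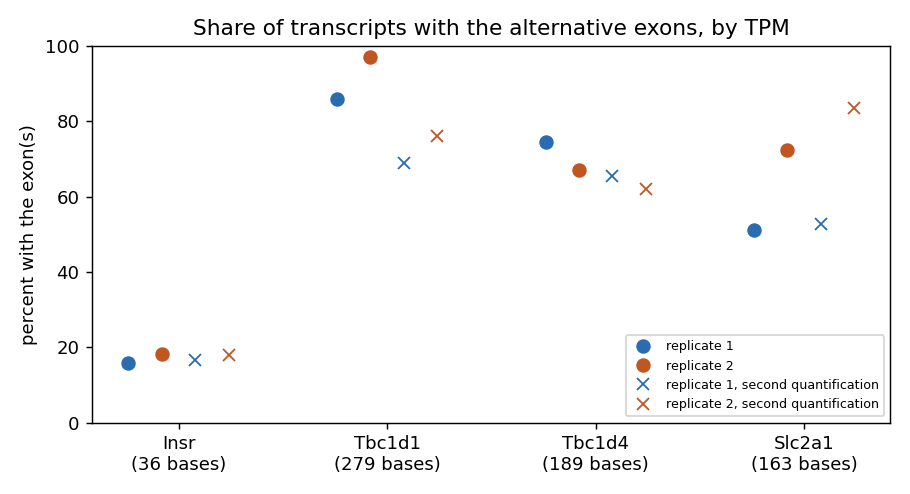
Percent of TPM in transcripts that hold the alternative exon or exons, out of those that hold or skip them, for 4 genes, with circles for the first and crosses for the second quantification, blue for replicate 1 and orange for replicate 2. The share lies at 15.8% to 18.2% for Insr in all 4 estimates and above 60% for Tbc1d1 and Tbc1d4, and it spreads widest for Slc2a1.

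Slc2a4 was nearly all in 1 transcript, Slc2a4-201 (509 residues), with 96.7% and 96.0% of the gene. Slc2a1 was divided between Slc2a1-201 (492 residues), with 51.1% and 72.5%, and Slc2a1-204, with 48.9% and 27.6%, which is annotated as a target of nonsense-mediated decay, the pathway that degrades RNA with an early stop. Slc2a1-204 lacks exon 5 of Slc2a1-201, at chr4:119133097-119133259, whose 163 bases are not a multiple of a codon. Only 76.6 and 38.1 expected counts stood behind it, and its credibility bounds in replicate 2 ran from 0.000501 to 0.981 TPM, so the share of Slc2a1-204 is not well measured at this depth.

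**Figure D4:**
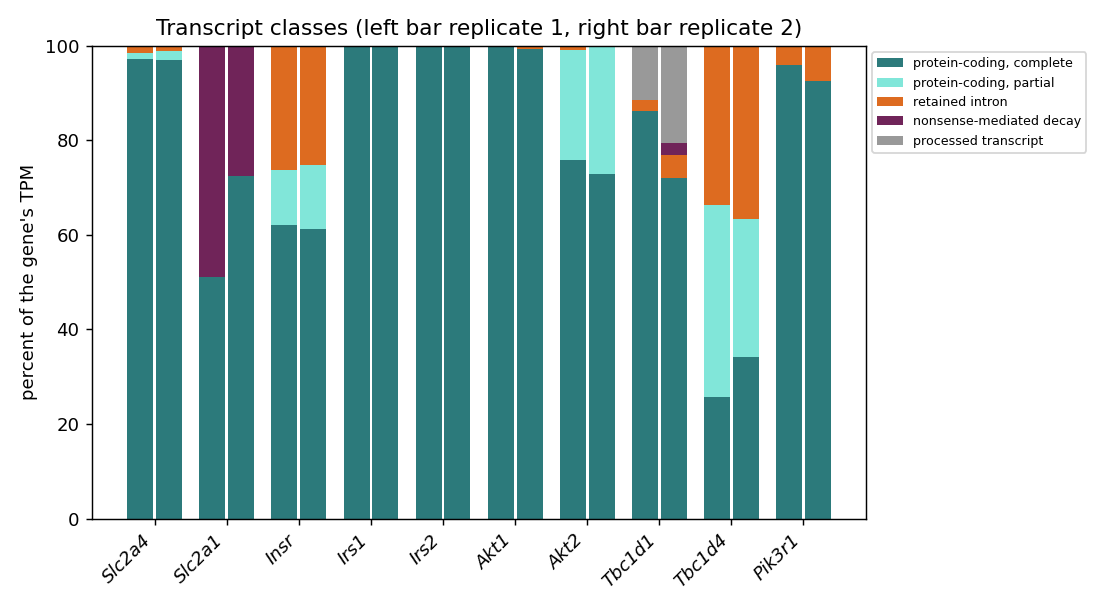
Percent of each gene's TPM by annotated class of transcript, with the left bar for replicate 1 and the right bar for replicate 2. Irs1 and Irs2 are wholly in a complete protein-coding transcript, and retained-intron transcripts reach 26.2% and 25.1% for Insr and 33.6% and 36.5% for Tbc1d4.

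Between the animals, 0 of the 10 genes differed by 2-fold or more, against 154 of 11125 compared genes, 1.38%. A count of 0 of 10 is close to that background, and it is the size of each difference that is described. The median log2 ratio of the 10 genes was 0.06, from -0.93 to 0.40, against a median of 0.00 for all compared genes. Their median absolute log2 ratio was 0.11, against 0.12 for all compared genes and 0.08 for the 3364 genes with a mean count of at least 1000. Of the 10 genes, 7 were higher in replicate 2 and 3 in replicate 1, against 5667 and 5458 of the 11125 compared genes. With spike-in scaling 7 of the 10 were higher in replicate 1, near the share of all compared genes, 8603 of 11125. The median of the 10 was then -0.07, and Slc2a4, Insr, Akt1 and Akt2 changed sign. No p-value was computed, since 2 animals of 1 group allow no exact two-sided sign-flip p below 0.5.

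Irs1 was the gene that stood apart. Its log2 ratio was -0.93 (95% counting interval -0.98 to -0.88), that is 1.91-fold higher in replicate 1, and 186 of the compared genes, 1.67%, differed at least as much in either direction. Among genes with a mean count of at least 1000, a minimum added after the data were seen, 0.505% did. The ratio was -0.93 in the second quantification and -0.91 with DESeq2 size factors, and with spike-in scaling it was -1.06, 2.08-fold and thus past 2-fold. Pik3r1 was next, with a log2 ratio of 0.40 (0.30 to 0.51), 1.32-fold higher in replicate 2, and 12.1% of compared genes differed at least as much.

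The other 8 genes differed little. Tbc1d1 and Tbc1d4 both had a log2 ratio of 0.19, with counting intervals of 0.13 to 0.25 and 0.10 to 0.28. Irs2 was at -0.13 (-0.25 to -0.00) and Slc2a1 at -0.08 (-0.38 to 0.21), whose interval spans 0. Slc2a4, Insr and Akt2 were each at 0.06 and Akt1 at 0.01, differences that 70.9% to 95.3% of compared genes equalled or exceeded.

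**Figure D5:**
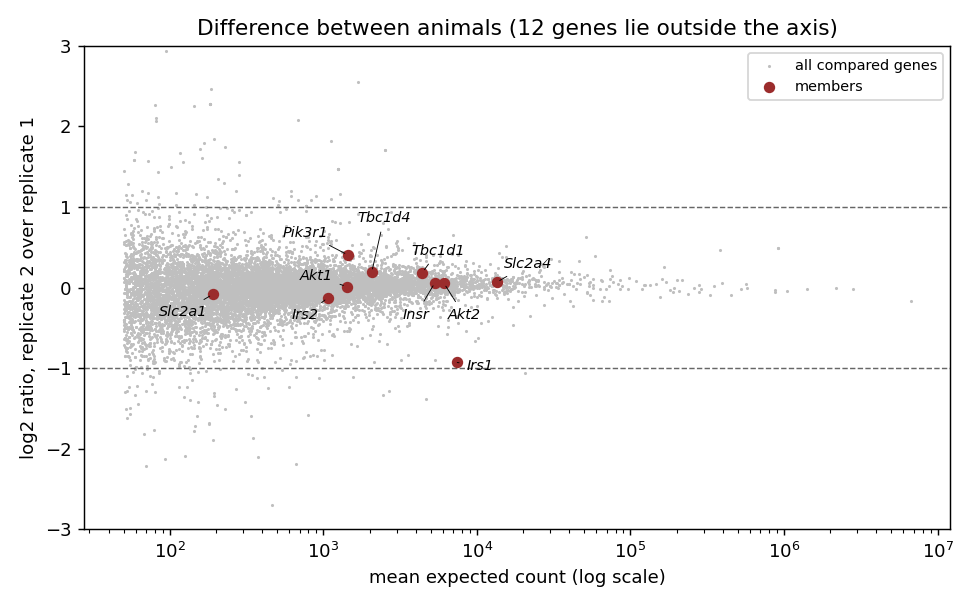
Log2 ratio of replicate 2 over replicate 1 after TMM scaling against mean expected count on a log axis, for 11125 genes (grey) and the 10 genes described (red), with dashed lines at 2-fold. Irs1 lies near the lower dashed line at -0.93, and the other 9 lie between -0.13 and 0.40; 12 grey genes fall outside the vertical axis.

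Marker lists of other cell types and fibre types are given beside the Irs1 difference. Of all 11125 compared genes, 5458 were higher in replicate 1 and 5667 in replicate 2. Schwann and nerve markers, led by Mbp and Pmp22, were higher in replicate 1 by 2-fold or more in 5 of the 5 compared, with a median log2 ratio of -2.10. Of 6 perineurial markers 2 were compared, and both were higher in replicate 1, with a median of -0.68 and Itgb4 past 2-fold (275 and 111 counts). Fibroblast markers, led by Gsn, Dcn and Col1a1, were higher there in 6 of 7, with a median of -0.25 and sums of 285 and 222 TPM. Endothelial markers were higher there in 6 of 8, with a median of -0.22, and adipocyte markers (Lpl, Fabp4 and Cfd the highest) in 3 of 5 compared, with a median of -0.23. Markers of slow and oxidative fibres (Myh2, the myosin of fast oxidative IIa fibres, was the highest, before Myl2 and Myl3 of slow fibres) were higher in replicate 2 in 8 of 8, with a median of 0.25 (0.12 with spike-in scaling, under which Myh2 was at -0.01). Macrophage markers, led by Lyz2, Csf1r and Mrc1, had sums of 11.4 and 11.0 TPM and a median of 0.10 (-0.03 with spike-in scaling), and erythroid markers (Hbb-bs, Hba-a1 and Hba-a2) a median of -0.24. The part of these cells in the Irs1 difference was not tested.

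Genes around the 10 were read from lists of the pathway. Of 9 paralogs of the 10 genes, 7 were detected and compared, and 0 differed by 2-fold. Slc2a3 was detected in the first quantification only. The median log2 ratio was -0.22, and 5 of the 7 were higher in replicate 1, against 5458 of all 11125 compared genes. Slc2a3 had the highest ratio, 0.24; Igf1r was at 0.05, Pik3r2 at -0.07, Pik3r3 at -0.22, Slc2a8 at -0.25 and Slc2a12 at -0.27.

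Upstream, 9 of 10 receptor adaptors and ligands were detected and 0 of 10 differed by 2-fold, with a median log2 ratio of -0.03. The adaptor Grb2 was at 28.5 ± 2.67, Crk at 22.7 ± 2.71 and Sh2b1 at 21.3 ± 1.71 TPM. Of 9 catalytic and other PI3K subunits, 8 were detected, with a median log2 ratio of -0.11 and 0 past 2-fold. Behind Pik3ca and Pik3r2 stood Pik3c3, the class III enzyme of endosomes and autophagy, at 5.94 ± 1.29 TPM and Pik3c2b, a class II enzyme, at 4.64 ± 0.905 TPM. All 6 kinases and complex subunits between the PI3K lipid and AKT were detected, with a median of -0.12 and 0 past 2-fold. Among these 6, the mTORC2 subunit Mapkap1 was at 33.7 ± 1.05, the mTOR inhibitor Deptor at 19.5 ± 2.31, the AKT-activating kinase Pdpk1 at 17.3 ± 1.20 and Mtor at 15.2 ± 2.67 TPM.

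Of 17 brakes on insulin signalling, 11 were detected, against 9686 of 22028 protein-coding genes. Of the 15 compared, 11 were higher in replicate 1, against 5458 of all 11125 compared genes (median log2 ratio -0.15). The lipid phosphatase Inppl1 (SHIP2) was the highest at 41.9 ± 1.29 TPM. Socs6, a SOCS-box protein, was at 18.6 ± 1.93 and the receptor-binding adaptor Grb10 at 13.04 ± 1.67 TPM. Only Ptprf and Socs3 differed by 2-fold or more: Ptprf (the phosphatase LAR) had 114 and 55 counts, 2.06-fold higher in replicate 1, and Socs3, a cytokine-induced inhibitor that can bind the receptor and its substrates, 35 and 109 counts, 2.97-fold higher in replicate 2. Both were under 1 TPM in at least 1 animal.

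Downstream, all 18 genes of GLUT4 vesicles and their Rab proteins were detected, with summed levels of 540.03 and 488 TPM, a median log2 ratio of -0.01 and 0 past 2-fold. The Rab substrate Rab10 was at 127 ± 3.25 TPM, Rac1, a GTPase of actin remodelling, at 95.2 ± 11.6, Rhoq (TC10) at 65.5 ± 5.61 and Rab14 at 31.2 ± 2.31 TPM. Rab10 was thus above Rab8a, at 3.33 ± 1.05 TPM, and Rab13, at 2.89 ± 0.495 TPM, both also known as targets of TBC1D4; these were named after their values were seen. All 10 AKT targets were detected, with a median of 0.00 and 0 past 2-fold. Gys1, the muscle glycogen synthase, was at 126 ± 1.68 TPM, Akt1s1 (PRAS40) at 61.0 ± 5.03, Foxo4 at 59.2 ± 1.51 and Tsc2 at 40.0 ± 7.35 TPM. Foxo1, a transcription factor that AKT keeps out of the nucleus, had 2789 and 1488 counts and a log2 ratio of -0.92, close in size to that of Irs1, and was likewise named after its values were seen. It was at 11.6 and 5.40 TPM.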

How the data were processed

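Total RNA was sequenced from gastrocnemius of 2 mice, with 300 ng of RNA per library, a directional kit and added ERCC RNAs, per the labels. Per the file headers and the deposited descriptions, each library has gene and transcript tables from transcriptome alignment (the first quantification) and a transcript table made directly from reads (the second), on mm10 with GENCODE M21. Which programs made them is not given in the sources used here. Expected counts, as deposited, are estimates of reads, in which a read that fits several features is shared out, and are not normalized. The deposited TPM values are scaled over all features of a library. The deposited percent values state how a gene's TPM is divided among its transcripts. The deposited posterior SDs and credibility bounds were taken as scores; of the 10 members, only Akt2 had a posterior SD of its gene count above 0. In these hybrids, reads were assigned to the reference strain's sequence, and the allele of origin was not analysed here.

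Symbols were mapped to gene identifiers through the second quantification's transcript names; all 55536 identifiers were found in GENCODE M21, which gave classes, coordinates, exons and sequences. For edgeR 4.0.16 in R 4.3.3, expected counts were first rounded to integers (TMM, log2 ratios with a prior count of 2), and DESeq2 1.42.0 size factors were an alternative. The ratios were checked on simulated data. Python 3.11.15, pandas 2.3.3, NumPy 2.4.6, SciPy 1.17.1 and matplotlib 3.10.9 were used for the rest. The depth, 42714567 and 43421652 expected counts, put the limit of a count of 0 (3 counts) at 0.0702 and 0.0691 CPM. The common biological coefficient of variation, as edgeR names it, was 0.124, and it includes any technical spread between the libraries.

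The text names all 10 members, their paralogs, up to 4 genes of highest TPM of each pathway list, listed genes at least 2-fold apart, up to 3 genes and those at 0 of each marker list, and each member's transcripts with at least 10% of the gene; others are said to be named after their values were seen. A few listed genes are not reported here. No gene was named as most alike in pattern, since 2 libraries give none. The members and lists were chosen with earlier results of these data known. Alternatives were another quantification, point estimate, scaling, count minimum, prior count and detection threshold, and leaving out each animal; the minimum of 1000 counts was added after seeing the data.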

Additional observations from a re-analysis of the deposited data

How the results depend on the processing

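The order of each pair called apart was the same under every alternative run, but sizes moved. Posterior mean TPM gave a Slc2a4 over Slc2a1 ratio of 66.6. Expected counts, which are not divided by length, gave 70.6 for this pair, 6.90 for Irs1 over Irs2, 2.14 for Tbc1d1 over Tbc1d4, 4.51 for Insr over Igf1r and 2.56 for Pik3r1 over Pik3r2. The second quantification gave 3.55 for Akt2 over Akt1 and 6.21 for Insr over Igf1r.

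The number of genes 2-fold apart between animals was 154, and it was 578 with a minimum of 10 counts, 2577 with none and 15 with a minimum of 1000 counts, chosen after seeing the data; fewer or more genes of low count enter by construction. It was 153 with DESeq2 size factors, 183 with spike-in scaling, 160 with a prior count of 0.5 and 108 in the second quantification. Of the members' log2 ratios, Irs1 alone passed 2-fold, at -1.06 with spike-in scaling. Of the members, 9 were detected at 5 TPM and 10 at 0.5 TPM. Leaving out 1 animal gave ratios of 74.2 to 89.6 for Slc2a4 over Slc2a1, 3.46 to 6.03 for Irs1 over Irs2, 4.33 to 5.0 for Akt2 over Akt1, 1.51 to 1.70 for Tbc1d1 over Tbc1d4, 7.30 to 8.01 for Insr over Igf1r and 0.817 to 1.28 for Pik3r1 over Pik3r2. No paired analysis was possible because the data hold only 1 group. Depth limits Slc2a1 and the short transcripts, which rest on under 200 counts in a library.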
